A study of Mus musculus with 6 samples.

Results

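The genes described here are 10 transcription factors that mark the stellate and mesothelial lineages of the liver, Gata4, Gata6, Tcf21, Lhx2, Hand2, Foxf1, Wt1, Hlx, Nr2f1 and Nr2f2. They were taken by name, and all 10 were found among the 17909 genes listed in at least 1 library. RNA was sequenced from 6 libraries of freshly isolated stellate cells, the vitamin A storing mesenchymal cells beside the liver sinusoids, taken from male C57BL/6 mice aged 24 weeks. In the HAS2_Tg group (replicates 4, 5 and 6) the mice carried a human HAS2 transgene under the promoter of alpha smooth muscle actin, which contractile mesenchymal cells use. In the Has2_KO group (replicates 7, 8 and 9) the floxed Has2 gene was deleted with Lrat-Cre, which acts in stellate cells. The HAS2 enzyme builds hyaluronan, a long sugar chain of the extracellular matrix. Neither group is a wild type, so each difference below is between these genotypes, and the share of it that belongs to either one cannot be told apart. All cells went through the same perfusion, density gradient and Cd11b bead depletion of macrophages, attached for 4 h, were kept for another 14 h with 10% serum and were sampled at day 1. The labels do not say that each library came from its own animal, so the p-values measure the spread between these libraries, which may be technical.

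Stellate cells derive from the septum transversum and its mesothelial covering, and they carry the transcription factors of that mesoderm into adult life. GATA4 and LHX2 are known in mice as brakes on stellate cell activation and liver fibrosis, TCF21 and HAND2 are basic helix-loop-helix (bHLH) factors of stellate cells and other visceral mesenchyme, and FOXF1 and HLX act in the mesenchyme of the gut and liver. WT1 marks the mesothelium and the embryonic cells that leave it. NR2F1 and NR2F2, also called COUP-TFI and COUP-TFII, are orphan nuclear receptors of mesenchyme, and NR2F2 also specifies venous endothelium.

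The libraries held 11961726 to 12423220 expected counts. Has2 had 847, 889 and 835 counts in the HAS2_Tg libraries and 1 count in each Has2_KO library. These counts are for the mouse gene, and whether reads of the human transgene fell on it was not tested. HAS2_Tg replicate 4 stood apart within its group, with a chi-square per degree of freedom of 22.8 against replicate 5 and 31.5 against replicate 6, where replicates 5 and 6 gave 6.24 and the Has2_KO pairs 2.31 to 3.17, and values without it are given below. The summed level of 18 stellate cell markers was 13562 to 14162 CPM (library-scaled counts, with TMM factors) in HAS2_Tg and 8372 to 8776 CPM in Has2_KO, the highest sum of the 7 marker lists in either group. Liver endothelial markers summed to 595 to 644 CPM in HAS2_Tg and 1936 to 2052 CPM in Has2_KO, and macrophage markers to 13.5 to 16.1 CPM in HAS2_Tg and 617 to 665 CPM in Has2_KO (exact two-sided permutation p = 0.1 for each list, the smallest that 3 against 3 libraries allow). In HAS2_Tg, most of the endothelial sum came from Rspo3 (492 CPM) and Bmp2 (105 CPM), named after their values were seen. The other 16 markers averaged at most 12.1 CPM each in HAS2_Tg. In Has2_KO, Rspo3 had 685 CPM and Bmp2 242 CPM, and other markers added much of the sum. Among them, Cdh5 averaged 402 CPM in Has2_KO and 1.76 CPM in HAS2_Tg, and Pecam1 118 CPM in Has2_KO and 0.82 CPM in HAS2_Tg. Markers of portal fibroblasts and vascular smooth muscle, which can also use the transgene's promoter, summed to 1458 to 1752 CPM in HAS2_Tg and 210.1 to 227 CPM in Has2_KO, a sum carried by the smooth muscle genes Myh11 (log2 fold change 3.55, SE 0.10) and Lmod1 (2.41, SE 0.10). Of 7 tested markers of that list, 3 were higher and 3 lower in HAS2_Tg (median -0.63). The shares over all tested genes were 20.2% higher and 20.5% lower. The lower markers were Thy1 (-2.17), Cd34 (-2.13) and Fbln2 (-0.69), named after their values were seen. Thy1 and Cd34 averaged 0.59 and 0.56 CPM in HAS2_Tg and were testable only through Has2_KO, so their direction was fixed once tested. Several of the 10 factors are also expressed in those cells or in endothelium, and the part of either in the results below was not tested. In bulk samples, fewer cells of a type and less RNA per cell cannot be told apart.

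Of the 10 factors, 8 were higher in HAS2_Tg, 1 (Wt1) was lower and 1 (Nr2f1) did not pass the test. Tcf21 changed the most among those that rose, by 2.74-fold, followed by Hand2, Nr2f2, Hlx and Lhx2 at 1.77-fold to 1.94-fold, and then by Gata4, Foxf1 and Gata6 at 1.19-fold to 1.38-fold (edgeR, adjusted p under the threshold of 0.05). Among all 13014 genes tested, 20.2% were higher and 20.5% lower in HAS2_Tg, and 40.7% passed in either direction. The median log2 fold change of the 10 factors was 0.64, beside -0.01 over all tested genes. The low-count filter was passed by all 10, 9 of them with levels in both groups and Wt1 only through Has2_KO, so the direction of Wt1 was fixed by the filter once it was tested. The smallest rises depend on how libraries are scaled. Scaling by total counts moved the median of all genes by -0.17 on the log2 scale, and then 6 of the 10 were higher, with Gata6 (0.07, edgeR adjusted p = 0.493) and Foxf1 (0.10, adjusted p = 0.323) no longer passing and Nr2f1 at -0.03 in place of 0.15.

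**Figure D1:**
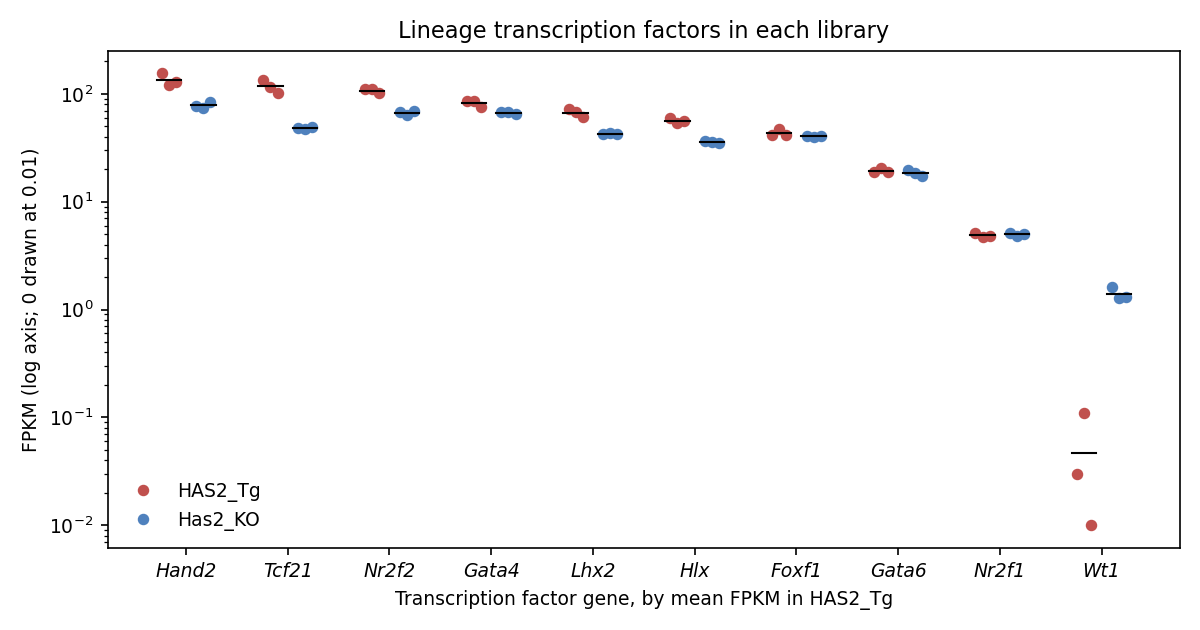
Authors' FPKM (log axis) of each factor in each library, HAS2_Tg in red and Has2_KO in blue, with a bar at each group's mean and the single value of 0 (Wt1, HAS2_Tg replicate 6) drawn at 0.01. Tcf21, Hand2, Nr2f2, Gata4, Lhx2, Hlx and Foxf1 were higher in every HAS2_Tg library than in any Has2_KO library, Gata6 and Nr2f1 overlapped, and Wt1 was at most 0.11 in HAS2_Tg and at least 1.27 in Has2_KO. Among all tested genes, 57.4% had FPKM ranges that did not overlap.

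Levels between genes were compared per length, as the authors' FPKM. Hand2 was the most abundant factor in both groups, at 135 ± 17.4 FPKM in HAS2_Tg and 78.8 ± 5.46 FPKM in Has2_KO (SD, n = 3). In HAS2_Tg the order went on with Tcf21 (118 ± 16.1), Nr2f2 (107 ± 5.24), Gata4 (82.2 ± 5.69), Lhx2 (67.2 ± 5.14), Hlx (56.2 ± 2.89), Foxf1 (43.4 ± 3.39), Gata6 (19.4 ± 1.16), Nr2f1 (4.89 ± 0.18) and Wt1. The ranges of Hand2 and Tcf21 overlapped there, as did those of Tcf21 and Nr2f2. In Has2_KO, Gata4 (67.2 ± 1.75) and Nr2f2 (67.1 ± 3.0) came next to Hand2 with overlapping ranges, Tcf21 (48.5 ± 1.40) followed them, and Foxf1 (40.6 ± 0.59) stood above Hlx (35.8 ± 0.71). Tcf21 thus held rank 2 in HAS2_Tg and rank 4 in Has2_KO, while Gata6, Nr2f1 and Wt1 were the 3 lowest in both groups. Hand2 exceeded 96.3% to 97.1% of the genes listed in each HAS2_Tg library and 93.7% to 94.6% in each Has2_KO library, and Nr2f1 exceeded 45.8% to 48.0% in HAS2_Tg and 45.4% to 46.7% in Has2_KO.

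Among the factors that rose, the bHLH genes Tcf21 and Hand2 had the largest fold changes. Tcf21, which binds DNA as a partner of E proteins, is encoded on chromosome 10 between 22817263 and 22820143, minus strand (GRCm38, as for all positions here). It stood at 177, 149 and 133 CPM in HAS2_Tg replicates 4, 5 and 6, against 56.0, 54.1 and 57.5 CPM in Has2_KO replicates 7, 8 and 9. Each HAS2_Tg library was thus far above every Has2_KO library, with replicate 4 the highest, and the log2 fold change was 1.45 (SE 0.10, edgeR adjusted p = 1.60e-08) and 1.33 without replicate 4 (adjusted p = 6.22e-13). Hand2, needed for the heart, limbs and gut mesenchyme, is encoded on chromosome 8 between 57320983 and 57324517, plus strand. It had 374, 283 and 311 CPM in HAS2_Tg, against 162, 156 and 179 CPM in Has2_KO. The groups did not overlap, HAS2_Tg replicate 4 was again the highest, and the log2 fold change was 0.96 (SE 0.10, adjusted p = 1.83e-06), or 0.84 without that library (adjusted p = 2.19e-09).

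The promoters of these genes are shown because Tcf21 and Hand2 had the largest rises, and because factors of this set bind such elements. Each is the 250 bases before the RefSeq start (GRCm38.p6), 5' to 3' on the gene's strand. Capitals mark the GATA motif (AGATAA, with its variant AGATAG, and TGATAA, with its variant TGATAG), E-boxes (CANNTG), the forkhead motif (GTAAACA, with its variant ATAAACA), a homeodomain motif (TAATTA) and nuclear receptor half-sites (AGGTCA, with its variant GGGTCA), searched on both strands.
Tcf21 (chr10:22820144-22820393, minus strand): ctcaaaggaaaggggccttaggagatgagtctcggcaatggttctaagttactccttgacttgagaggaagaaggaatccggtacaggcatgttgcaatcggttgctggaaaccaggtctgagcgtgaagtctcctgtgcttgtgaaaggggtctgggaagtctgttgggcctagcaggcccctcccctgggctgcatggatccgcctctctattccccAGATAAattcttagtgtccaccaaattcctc
Hand2 (chr8:57320733-57320982, plus strand): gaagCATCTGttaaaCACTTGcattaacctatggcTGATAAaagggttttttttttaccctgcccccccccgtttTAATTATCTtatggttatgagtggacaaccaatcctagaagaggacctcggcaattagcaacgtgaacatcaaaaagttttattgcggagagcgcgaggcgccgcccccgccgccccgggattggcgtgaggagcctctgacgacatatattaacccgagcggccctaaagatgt
The Tcf21 window held 1 GATA match and no E-box. The Hand2 window held 2 GATA matches, 2 E-boxes and 1 homeodomain match, which overlaps the second GATA match. The windows of Hlx and of each Lhx2 start, genes that also rose, held none of the marked motifs and are not printed. Of 32851 promoter windows of this length, 26.5% held a GATA motif, 66.2% an E-box, 7.1% a forkhead motif, 4.8% the homeodomain motif and 23.8% a half-site. A match in letters is not a binding site.

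Of 11 tested bHLH partners and relatives, 2 were higher and 4 lower in HAS2_Tg (median -0.02), and with total counts none was higher. The E protein genes Tcf4 and Tcf12 both had -0.02, and Tcf3 had -0.14 (edgeR adjusted p = 0.847, 0.870 and 0.161, chosen after their values were seen). Among the Id genes, whose products sequester E proteins, Id4 was 2.53 ± 0.14 CPM in HAS2_Tg and 11.2 ± 0.30 CPM in Has2_KO (log2 fold change -2.15, SE 0.15), and Id1 was 8.73 ± 0.66 CPM in HAS2_Tg and 16.9 ± 2.44 CPM in Has2_KO (-0.95, SE 0.13). Id2 (0.39) and Id3 (0.41), chosen after their values were seen, were the members of the list that were higher. Twist2, a bHLH repressor of mesenchyme, had -0.94 (SE 0.15), against a background of 20.5% of genes lower.

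Of the nuclear receptor paralogs, Nr2f2 rose and Nr2f1 did not pass the test. Nr2f2 (chromosome 7 between 70351946 and 70366746, minus strand) had the highest counts of the 10 genes. It stood at 506, 487 and 459 CPM in HAS2_Tg, against 270.3, 255 and 279 CPM in Has2_KO. All HAS2_Tg libraries lay well above the Has2_KO libraries, with a log2 fold change of 0.85 (SE 0.07, edgeR adjusted p = 2.66e-07). Nr2f1, at chromosome 13 between 78188971 and 78198873, minus strand, had 13.4, 12.03 and 12.6 CPM in HAS2_Tg, against 11.8, 11.0 and 11.5 CPM in Has2_KO. Its CPM ranges did not overlap, as for 52.2% of all tested genes, but its log2 fold change of 0.15 (SE 0.11, adjusted p = 0.314) did not pass, and its mean FPKM was 4.89 ± 0.18 in HAS2_Tg and 4.99 ± 0.18 in Has2_KO. The share of Nr2f1 within the FPKM of both paralogs, which does not depend on library scaling, was 4.40%, 4.13% and 4.56% in HAS2_Tg, against 7.06%, 6.996% and 6.72% in Has2_KO (exact two-sided permutation p = 0.1, the smallest that 3 against 3 allow). Nr2f1 was thus the minor paralog throughout, and its share was lower in every HAS2_Tg library. Expected counts were whole in every library for 8 of the 10 factors but not for Nr2f1 and Nr2f2. RSEM divides reads that match more than 1 place, and which genes shared them is not recorded, so the size of the Nr2f1 and Nr2f2 values is uncertain.

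The same 250-base window is shown for this pair, since 1 paralog rose and the other did not pass. The Nr2f1 window belongs to the first of its 2 starts in the table.
Nr2f2 (chr7:70366747-70366996, minus strand): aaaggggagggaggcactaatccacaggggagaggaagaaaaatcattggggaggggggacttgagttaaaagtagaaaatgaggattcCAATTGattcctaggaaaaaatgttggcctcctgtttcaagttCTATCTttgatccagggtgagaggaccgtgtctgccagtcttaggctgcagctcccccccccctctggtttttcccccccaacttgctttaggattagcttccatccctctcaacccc
Nr2f1 (chr13:78198874-78199123, minus strand): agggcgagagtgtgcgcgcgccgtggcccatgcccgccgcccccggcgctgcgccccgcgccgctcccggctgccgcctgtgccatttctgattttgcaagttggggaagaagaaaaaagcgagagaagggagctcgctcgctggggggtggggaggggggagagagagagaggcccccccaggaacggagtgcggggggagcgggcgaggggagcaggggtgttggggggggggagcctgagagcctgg
The Nr2f2 window held 1 GATA match and 1 E-box, and this Nr2f1 window none of the motifs marked in capitals. The window of the second Nr2f1 start, not printed, held 2 E-boxes and 1 forkhead match.

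Retinoid receptors act as dimers with RXR, as many nuclear receptors do. Of 9 tested COUP-TF relatives and retinoid receptors, 3 were higher and none lower in HAS2_Tg (median 0.05, edgeR), and with total counts 1 was lower. Among all tested genes, 20.2% were higher and 20.5% lower. Rarg averaged 145 ± 11.0 CPM in HAS2_Tg, with 97.0 ± 1.41 CPM in Has2_KO (log2 fold change 0.58, SE 0.08), Rarb, itself induced by retinoic acid, had 0.53 (SE 0.09) and Rxra 0.27 (SE 0.08, adjusted p = 0.0111). The nearest relative, Nr2f6, had 0.31 (adjusted p = 0.0502, chosen after its value was seen).

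Gata4 and Gata6, zinc finger factors that read the same motif, followed with smaller differences. Gata4 is encoded on chromosome 14 between 63198914 and 63271712, minus strand. It had 316, 303 and 276 CPM in HAS2_Tg, against 219, 218 and 210 CPM in Has2_KO. The groups did not overlap, with a log2 fold change of 0.47 (SE 0.08, edgeR adjusted p = 0.000156), and 0.29 with total counts (adjusted p = 0.00541). Gata4 is also expressed by liver sinusoidal endothelium, whose 18 tested markers were all lower in HAS2_Tg (median -5.31), where 20.5% of all tested genes were lower. Those near 0 in HAS2_Tg, such as Emcn with 0 counts there, passed the low-count filter only through Has2_KO. Their direction was thus fixed once they were tested. Gata6 had 64.9, 69.4 and 64.1 CPM in HAS2_Tg, against 59.5, 55.4 and 52.4 CPM in Has2_KO. Its log2 fold change of 0.25 (SE 0.08, adjusted p = 0.0233) no longer passed without HAS2_Tg replicate 5 (0.21, adjusted p = 0.0856), Has2_KO replicate 8 (0.24, 0.0794) or Has2_KO replicate 9 (0.20, 0.129), and its FPKM of 18.7, 20.7 and 18.7 in HAS2_Tg overlapped the 19.7, 18.3 and 17.3 of Has2_KO. Gata4 made up 82.1%, 80.4% and 80.2% of the FPKM of both genes in HAS2_Tg, against 77.6%, 78.8% and 79.0% in Has2_KO (exact two-sided permutation p = 0.1). The balance thus leaned to Gata4 everywhere, slightly more so in each HAS2_Tg library.

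Of 6 tested GATA relatives and cofactors, 1 was higher and 2 lower in HAS2_Tg (median -0.03), where 20.2% of all tested genes were higher and 20.5% lower. Lmcd1, a LIM protein known to restrain GATA6, averaged 59.6 ± 6.62 CPM in HAS2_Tg, with 19.98 ± 1.4 CPM in Has2_KO (log2 fold change 1.58, SE 0.10, edgeR adjusted p = 8.20e-09). Zfpm2, also called FOG2, the cofactor of GATA4 in the heart, had 121 ± 17.3 CPM in HAS2_Tg and 123 ± 4.22 CPM in Has2_KO (-0.02, SE 0.09, chosen after its value was seen). Gata2, a blood and endothelial factor, had a log2 fold change of -2.80 (SE 0.29), beside the endothelial (median -5.31) and macrophage markers (median -6.21), and their part in it was not tested. Gata2 averaged 0.62 CPM in HAS2_Tg and 4.36 CPM in Has2_KO. It and the markers near 0 in HAS2_Tg were testable only through Has2_KO, which fixed their direction. Trps1, an atypical GATA repressor, had -1.39 (SE 0.19).

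Lhx2, a LIM-homeodomain factor, is encoded on chromosome 2 between 38339271 and 38369737, plus strand. It had 177, 162 and 151 CPM in HAS2_Tg, against 91.6, 93.8 and 91.4 CPM in Has2_KO. The Has2_KO libraries were tightly grouped below all HAS2_Tg libraries, and the log2 fold change was 0.82 (SE 0.08, edgeR adjusted p = 7.12e-07). Hlx, a homeobox gene of liver and gut mesenchyme at chromosome 1 between 184727143 and 184732493, minus strand, had a difference of similar size. It stood at 139, 121 and 129 CPM in HAS2_Tg, against 74.6, 72.7 and 72.1 CPM in Has2_KO, again without overlap (0.83, SE 0.08, adjusted p = 5.31e-07). Of 8 tested LIM-homeodomain factors and LIM cofactors, 3 were higher and 1 lower (median 0.13), and with total counts 2 were lower. Among all tested genes, 20.2% were higher and 20.5% lower. Ldb1, the adaptor that binds LIM domains, was 159 ± 15.6 CPM in HAS2_Tg and 116 ± 6.81 CPM in Has2_KO (0.45, SE 0.09) and its partner Ssbp2 had 0.50 (SE 0.09), while Lmo2, an LDB1 partner of blood and endothelial cells, fell by 3.93 on the log2 scale (SE 0.18), beside the markers of those cells, whose part in it was not tested.

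Foxf1, a forkhead factor and target of Hedgehog signals, is encoded on chromosome 8 between 121084386 and 121088154, plus strand. It had 109, 120 and 107 CPM in HAS2_Tg, against 93.8, 91.3 and 93.2 CPM in Has2_KO. The groups did not overlap in CPM, with a log2 fold change of 0.27 (SE 0.07, edgeR adjusted p = 0.00941). In FPKM the margin was narrow, at 41.7, 47.3 and 41.2 in HAS2_Tg and 41.1, 39.9 and 40.6 in Has2_KO. Fendrr, the long noncoding RNA transcribed away from Foxf1 on the opposite strand, was 33.8 ± 3.11 CPM in HAS2_Tg and 27.3 ± 0.87 CPM in Has2_KO (0.31, SE 0.09, adjusted p = 0.0173), and lost its call with total counts or without Has2_KO replicate 7 or 8, at adjusted p = 0.269, 0.0708 and 0.0665. Of 14 tested forkhead relatives, none was higher and 13 did not pass (median -0.03), where 20.2% of all tested genes were higher and 20.5% lower. The 1 that was lower was the cell cycle factor Foxm1 (-0.62, SE 0.14). The next by adjusted p were Foxo4 (0.26, adjusted p = 0.0523) and Foxs1 (0.27, 0.0923). With total counts 4 of them were lower. Leaving out HAS2_Tg replicate 4, 5 or 6 gave 2, 1 and 1 higher with 2, 2 and 5 lower, and leaving out Has2_KO replicate 8 gave 2 lower, so the forkhead counts rest on single libraries.

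**Figure D2:**
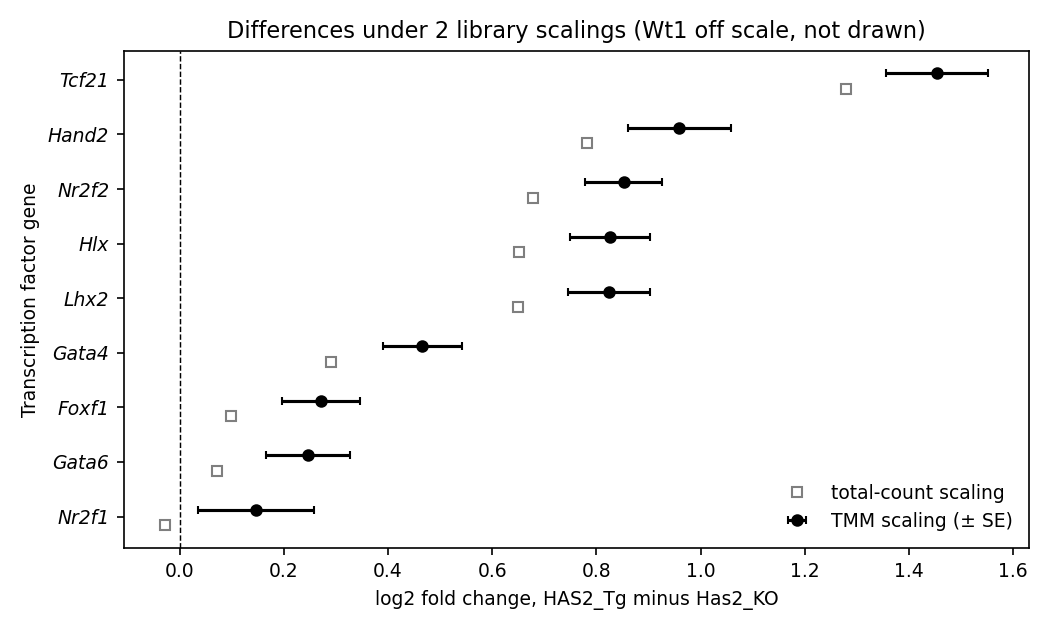
Log2 fold change (HAS2_Tg minus Has2_KO) of 9 factors from the edgeR fit with TMM scaling (filled circles, bars are SE) and with total counts only (open squares). All 9 move left by a like amount with total counts, which takes Nr2f1 from 0.15 to -0.03 and leaves Tcf21 at 1.28.

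Because scaling moves all genes together, the make-up of the factor transcripts was also compared within each library. Summed over the 10 genes, the level was 682, 627 and 591 FPKM in HAS2_Tg, against 409, 397 and 411 FPKM in Has2_KO. Tcf21 took 19.7%, 18.6% and 17.3% of that sum in HAS2_Tg, against 11.9%, 11.9% and 12.1% in Has2_KO. Gata4 took 12.6%, 13.6% and 12.8% in HAS2_Tg, against 16.7%, 17.1% and 15.8% in Has2_KO. Foxf1 took 6.11% to 7.54% in HAS2_Tg and 9.88% to 10.1% in Has2_KO, and Gata6 took 2.75% to 3.30% in HAS2_Tg and 4.2% to 4.83% in Has2_KO. The shares of 4 factors overlapped between the groups, with Hand2 at 22.7%, 19.3% and 22.0% in HAS2_Tg and 18.9%, 18.7% and 20.6% in Has2_KO, Nr2f2 at 16.2% to 17.5% in HAS2_Tg and 16.1% to 16.9% in Has2_KO, Lhx2 at 10.4% to 10.8% in HAS2_Tg and 10.3% to 11.0% in Has2_KO, and Hlx at 8.54% to 9.42% in HAS2_Tg and 8.56% to 8.97% in Has2_KO. Nr2f1 took 0.75% to 0.82% in HAS2_Tg and 1.21% to 1.26% in Has2_KO, and Wt1 at most 0.02% in HAS2_Tg and 0.32% to 0.39% in Has2_KO. The mix thus held more Tcf21 and less Gata4, Foxf1, Gata6, Nr2f1 and Wt1 in each HAS2_Tg library, with Hand2, Nr2f2, Lhx2 and Hlx in overlapping proportion. A share of a sum falls when other members rise more, so a lower share is not a lower level. The coefficient of variation of CPM between libraries, over the 9 genes other than Wt1, was 4.29% to 14.6% in HAS2_Tg and 1.40% to 7.12% in Has2_KO, and was higher in HAS2_Tg for each of them except Gata6.

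**Figure D3:**
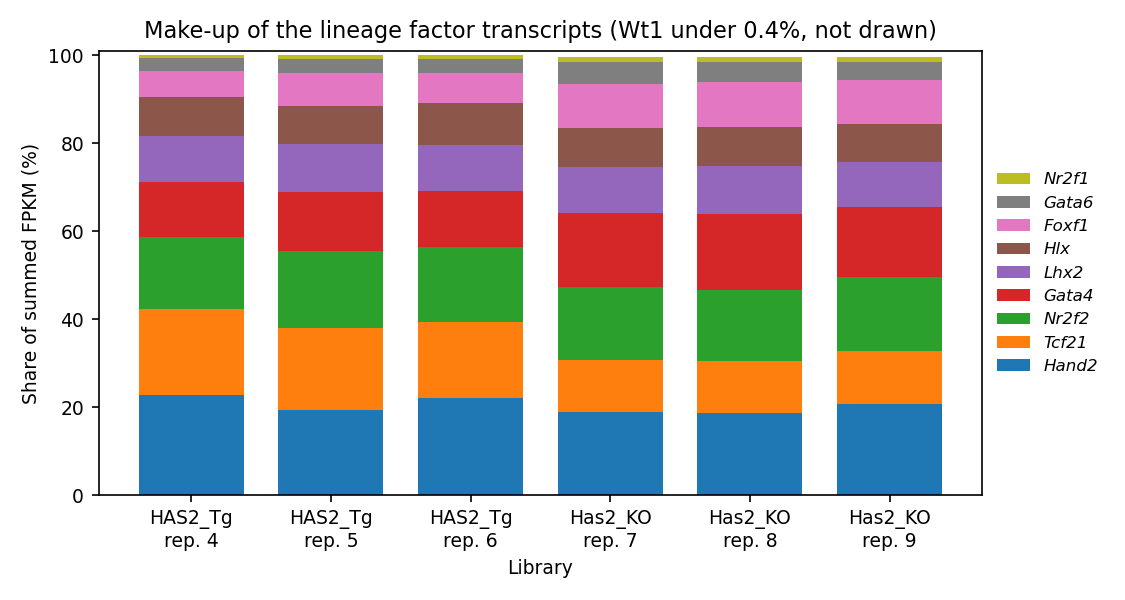
Share of each factor in the summed FPKM of the 10 genes (stacked bars, percent) in each library, HAS2_Tg on the left. Tcf21 takes 17.3% to 19.7% in HAS2_Tg and 11.9% to 12.1% in Has2_KO, and Gata4 takes 12.6% to 13.6% in HAS2_Tg and 15.8% to 17.1% in Has2_KO.

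Wt1, the zinc finger factor of the mesothelium, was lower in HAS2_Tg, where it was close to 0. Wt1 is encoded on chromosome 2 between 105126529 and 105173614, plus strand. Its expected counts were 1, 4 and 0 in HAS2_Tg replicates 4, 5 and 6, against 62, 49 and 50 in Has2_KO replicates 7, 8 and 9. In FPKM this was at most 0.11 in HAS2_Tg and 1.61, 1.27 and 1.30 in Has2_KO, so the gene was low in both groups. The log2 fold change was -4.70 (SE 0.45, edgeR adjusted p = 6.66e-07), and -6.23 without HAS2_Tg replicate 5, which held 4 of the 5 counts of its group. As group sums, 5 counts in HAS2_Tg stood against 161 in Has2_KO, a Has2_KO to HAS2_Tg ratio of 27.8 after TMM scaling (95% exact interval 11.7 to 86.8, counting error only). Wt1os, the RNA transcribed away from Wt1, had 0 counts in HAS2_Tg and 5 in Has2_KO and was not tested. Whether counting used the strand is not stated, so reads where the pair overlaps cannot be told apart.

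The defining mesothelial markers were at or near 0 in both groups. Msln, Upk1b and Upk3b together had 0, 1 and 1 counts in HAS2_Tg and 0, 4 and 0 in Has2_KO. Gpm6a had 0 in each HAS2_Tg library and 3, 2 and 1 in Has2_KO. Lrrn4 had 0, 1 and 2 in HAS2_Tg and 2, 2 and 6 in Has2_KO. Krt7 leaned the other way, with 1, 1 and 2 in HAS2_Tg and 1, 0 and 0 in Has2_KO. Gpm6a, Lrrn4 and Krt7 were chosen after their values were seen and were not tested. Krt8 and Krt18, keratins of mesothelium and also of hepatocytes and bile duct cells, had their counts in the same group as Wt1. Krt8 had 0, 0 and 3 counts in HAS2_Tg and 37, 37 and 45 in Has2_KO, and Krt18 had 0 in each HAS2_Tg library and 31, 34 and 55 in Has2_KO. Of 14 mesothelial markers in the files, 3 had no count in HAS2_Tg and 1 none in Has2_KO. The test covered 4 of the 14, of which 3 were lower and 1 higher (Efemp1, a matrix glycoprotein gene, 0.35). Over all tested genes, 20.5% were lower and 20.2% higher. With total counts none of these markers was higher. Krt8 and Krt18, like Wt1, passed the low-count filter only through Has2_KO, so their direction was fixed once they were tested. The other lower marker, Pdpn, had counts in both groups. It averaged 3.49 ± 0.84 CPM in HAS2_Tg and 10.6 ± 0.29 CPM in Has2_KO (log2 fold change -1.60, SE 0.17, edgeR adjusted p = 2.24e-06). Efemp1 makes up nearly all of the list's summed level, 264 to 316 CPM in HAS2_Tg and 231 to 251 CPM in Has2_KO. Hepatocyte markers summed to 25.2 to 26.8 CPM in HAS2_Tg and 58.0 to 74.2 CPM in Has2_KO, and bile duct markers to 3.23 to 3.77 CPM in HAS2_Tg and 21.8 to 26.3 CPM in Has2_KO. The part of these cells, and of endothelium and macrophages, in the Wt1 difference was not tested.

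**Figure D4:**
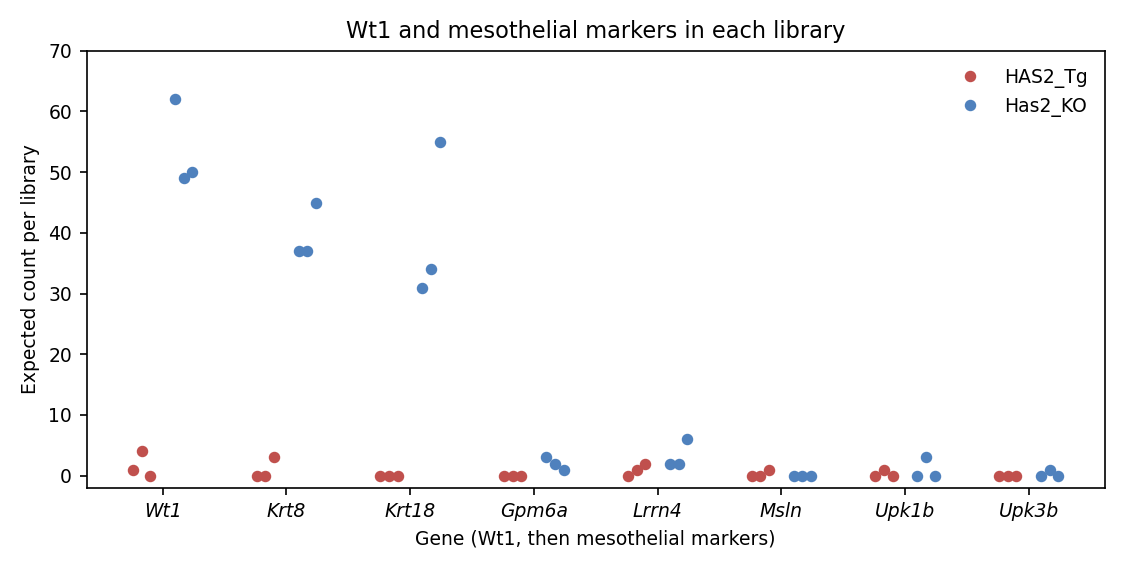
Expected counts of Wt1 and of mesothelial markers in each library, HAS2_Tg in red and Has2_KO in blue, 1 point per library. Wt1, Krt8 and Krt18 lie at 31 to 62 counts in Has2_KO and at most 4 in HAS2_Tg, while Msln, Upk1b and Upk3b lie at 3 or below in both groups. Gpm6a lies at 0 in HAS2_Tg and at most 3 in Has2_KO, and Lrrn4 at most 2 in HAS2_Tg and at most 6 in Has2_KO.

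Of 8 tested mesothelial and epicardial factors and WT1 partners, 3 were higher and none lower in HAS2_Tg (median 0.14), and with total counts 2 were lower. Among all tested genes, 20.2% were higher and 20.5% lower. Basp1, a corepressor of WT1, was 154 ± 17.3 CPM in HAS2_Tg and 51.2 ± 2.54 CPM in Has2_KO (log2 fold change 1.59, SE 0.09, edgeR adjusted p = 2.81e-09), Tbx2, a T-box repressor, had 0.54 (SE 0.09) and Wtip, a WT1-interacting protein, 0.34 (SE 0.12). Tbx20, a T-box factor of heart and epicardium, averaged 179 ± 14.1 CPM in HAS2_Tg, against 188 ± 4.10 CPM in Has2_KO, and did not pass (-0.07, SE 0.08, chosen after its value was seen).

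All 15 tested endothelial and blood lineage factors were lower in HAS2_Tg (median -2.54), where 20.5% of all genes were lower, and a factor near 0 in HAS2_Tg was testable because of its level in Has2_KO. Erg, an endothelial ETS factor, was 0.06 ± 0.10 CPM in HAS2_Tg and 22.9 ± 0.90 CPM in Has2_KO, the myeloid factor Spi1 (PU.1) had -5.29 (SE 0.25), and Sox7, a vascular SOX factor, -3.16 (SE 0.19). Of 10 mesenchymal homeobox factors, 1 was higher and 3 lower (median 0.05), with 2 higher without HAS2_Tg replicate 4 or 5. The lower ones were Hhex (-4.61, SE 0.33), which endothelium and hepatocytes express, Meis2 (-0.70, SE 0.09) and Prrx1 (-0.81, SE 0.11). The higher one was Prrx2 (1.82, SE 0.37, edgeR adjusted p = 0.00116), named after its value was seen. It averaged 1.82 ± 0.28 CPM in HAS2_Tg and 0.51 ± 0.29 CPM in Has2_KO. Hhex averaged 0.21 CPM in HAS2_Tg and 5.27 CPM in Has2_KO. Hhex was testable only through Has2_KO and Prrx2 only through HAS2_Tg, so the direction of each was fixed once tested. Of 6 hepatocyte and bile duct factors, 1 was higher and 3 lower. The one higher was Nr1h4, the bile acid receptor FXR (0.88, SE 0.08). It averaged 147 ± 6.12 CPM in HAS2_Tg, against 80.2 ± 7.7 CPM in Has2_KO. Nr5a2, a nuclear receptor of bile acid synthesis, was 0.03 ± 0.05 CPM in HAS2_Tg and 2.56 ± 0.26 CPM in Has2_KO. Nr5a2 was testable only through Has2_KO, so its direction was fixed once tested. Cebpa had -0.83 (SE 0.12). Of 18 stellate cell markers, 12 were higher and 1 lower (median 0.75), where 20.2% of all tested genes were higher and 20.5% lower. Without HAS2_Tg replicate 6 or with total counts, 2 were lower. The collectins Colec11 (2.83) and Colec10 (2.79) and the retinol esterifying enzyme Lrat (1.98) were in front.

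**Figure D5:**
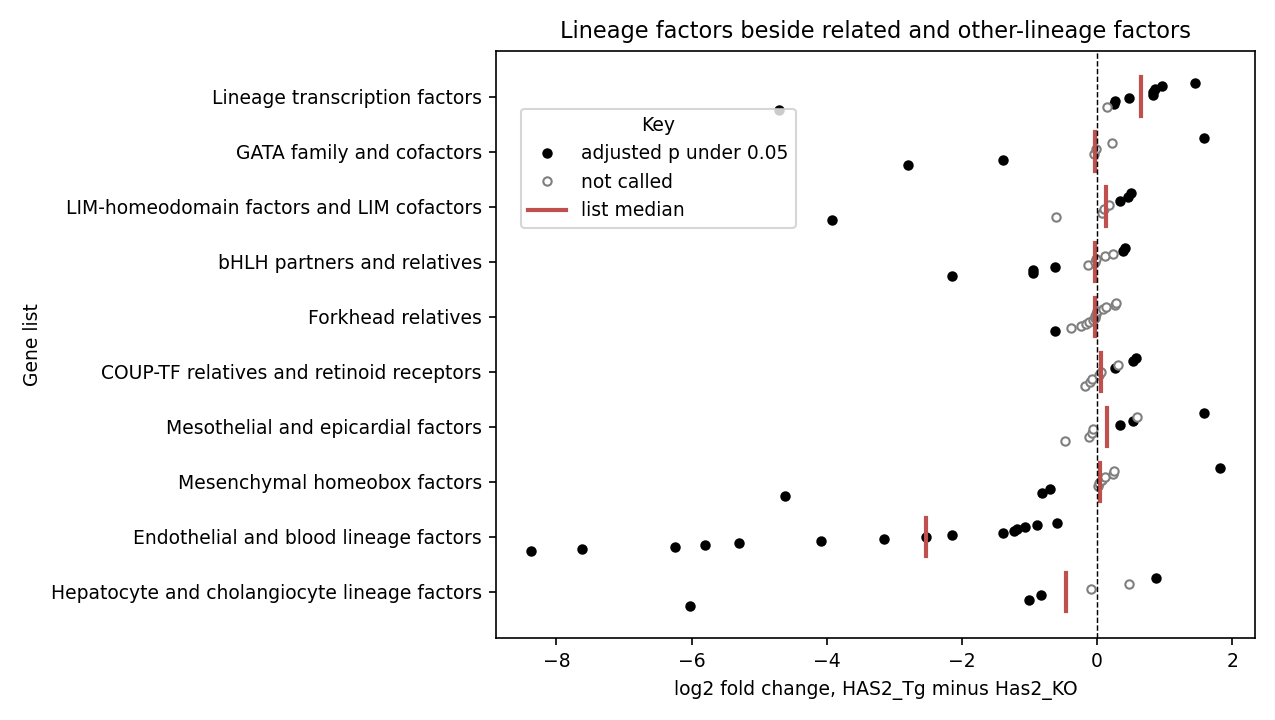
Log2 fold change (HAS2_Tg minus Has2_KO) of every tested gene of each list, 1 point per gene, filled where the edgeR adjusted p was under 0.05, with the list median in red. The lineage factors have a median of 0.64 and Wt1 at -4.70, and the endothelial and blood lineage factors a median of -2.54 with all 15 points below 0.

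The genes whose profiles over the 6 libraries lay nearest to a factor were found by the root mean square difference of centred log2 CPM. For Tcf21 they were Shisa2 (0.06) and Ifi27l2a (0.06), for Hand2 Lamb2 (0.05) and Arhgef25 (0.05), for Lhx2 Sgsh (0.04) and Rtn4rl1 (0.04), and for Hlx Ass1 (0.03) and Tgfb1i1 (0.04). Nr2f2 had Nr1h4 and Tgfb1i1 (0.05 each), so Tgfb1i1 was near both Hlx and Nr2f2. Gata4 had Tubb6 (0.02) and Dclk1 (0.03), Gata6 Gucd1 and Lta4h (0.03 each), Foxf1 Zfp367 (0.02), Nr2f1 Polr2j and Osbpl2 (0.02 each), and Wt1 Abcc3 (0.14) and Slc39a4 (0.15). These 6 libraries fall into 2 groups, so a gene with a like difference between them lies near by construction.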

How the data were processed

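RNA of 6 mouse stellate cell libraries was sequenced on the BGISEQ-500, per the labels, and the submitters' processing notes name RSEM and the mm10 build; the RSEM version and any further step are not given in the sources used here. The deposited tables give expected counts, RSEM's estimate of how many reads fall on a gene, per the file headers, and these need not be whole. They also give the authors' FPKM, scaled by length and by sequencing depth. A gene missing from a library was set to 0.

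Gene identifiers were named through RefSeq (GRCm38.p6), 17857 of 17909 in all. After rounding, genes kept by filterByExpr entered 1 edgeR fit with TMM factors (robust quasi-likelihood F test, HAS2_Tg minus Has2_KO), and p-values were adjusted over all genes by Benjamini and Hochberg with a threshold of 0.05. SE is the log2 fold change over the square root of F. Library totals were 11961726 to 12423220. Marker sums and paralog shares were compared by exact permutation. The groups share no replicate numbers. All 10 factors are named, with up to 3 genes per list by adjusted p and, for each factor, the 2 genes of nearest profile among those within 4-fold of its mean CPM (0.5 CPM added before the log). For Foxf1, 1 of these genes is not reported here. Members and lists were chosen with earlier results of these data known, so no list is independent support. RefSeq promoter sequences were found for 6 of the 10 factors. Hand2os1, Gata6os and sequences of the other 4 were not analysed here. The fits ran in edgeR 4.0.16 under R 4.3.3, with limma 3.58.1 and DESeq2 1.42.0 as alternatives, and the rest in Python 3.11.15. The script was tested on simulated counts with 1 set spread between libraries. It recovered 20.4% of 1.25-fold, 66.0% of 1.5-fold, 88.0% of 2-fold and 100% of 4-fold changes, with 8 false among 145 calls. A difference as small as that of Nr2f1 can thus go uncalled.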

Additional observations from a re-analysis of the deposited data

How the results depend on the processing

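Tcf21, Hand2, Nr2f2, Hlx, Lhx2 and Gata4 kept their direction and passed under all 15 alternatives. Wt1 was called lower under the 14 that tested it, but its direction is fixed wherever it is tested through Has2_KO alone, so this is no sign of stability. A filter on a mean of 5 CPM removed Wt1, so that 0 factors were called lower, and left 19 of the related factors lower in place of 29. With total counts, 1477 genes were higher and 4827 lower, against 2625 and 2673 with TMM scaling, and 9 related factors were higher in place of 15. With limma on log2(FPKM + 1) the genes higher and lower were 1399 and 4198, with log2(FPKM + 0.1) 1376 and 4138, and with no filter 1366 and 4596, with 9 related factors higher each time. In those fits and with total counts, Gata6 (0.07 in each) and Foxf1 (0.09 to 0.10) did not pass and Nr2f1 turned to -0.0282 with total counts, -0.0287 with log2(FPKM + 0.1) and -0.0243 with log2(FPKM + 1), filtered or not. These fits share scaling by library totals. DESeq2 size factors, the DESeq2 Wald test and TMM factors without other cell types' markers changed no call among the 10. Leaving out each library in turn gave 7 to 8 factors higher and 1 lower, the changes being those of Gata6. The paralog shares kept their direction as shares of expected counts and the marker sums with total counts, and both did so without each library in turn. No paired analysis was possible because the groups share no replicate numbers. At 0 to 4 counts a library, Wt1 in HAS2_Tg is known only within its counting interval.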
